A study of Arabidopsis thaliana with 16 samples.

Results

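The comparison concerns Arabidopsis thaliana seedlings that had received no dexamethasone: 4 libraries of a transgenic line against 4 libraries of wild type, 8 of the 16 libraries of the series, chosen by genotype and by the time point of 0 h. The transgenic line, called the inducible line here, was homozygous for ATML1pro:GR-SPCH1-4A-YFP. Seedlings of both lines were grown from cold-treated seed in liquid medium with 1% sucrose on a platform turning at 90 rpm and were 7 days past germination, and those at 0 h had not been treated. The other 8 libraries came from the same lines 12 h after 100 μM dexamethasone and serve here as separate libraries in which a line difference can be looked at again. The labels give 1 transgenic genotype and none with the receptor domain or the fluorescent protein alone, so that the transgene, its place of insertion and the seed stock of the line cannot be told apart. Whether the 4 libraries per group stem from separate cultures is not in the labels, and the spread behind each p-value may be technical in part. If they do not, a difference between cultures cannot be told apart from one between the lines. Sequencing used a pair of lanes, lane 1 with replicates 1 and 2 of all groups and lane 2 with replicates 3 and 4.

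SPEECHLESS (SPCH) is the basic helix-loop-helix transcription factor that starts the stomatal lineage of the leaf epidermis, and MAP kinases phosphorylate it and lower its abundance. In the 4A variant phosphorylation sites are changed. Fusion to the ligand-binding domain of the glucocorticoid receptor (GR) keeps such a factor in the cytoplasm with chaperones until a steroid is added, and the ATML1 promoter is active in the epidermis. The question of the comparison is how alike the lines were before the steroid was given.

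Before the results, the libraries themselves. The recovered total was 16876720 to 19741388 reads in the inducible line and 16590689 to 22944391 in wild type at 0 h. The lanes stood apart along the first principal component, which held 49.5% of the variance over all 16 libraries, and the fit therefore has a term for lane. The second component, with 13.96%, placed the inducible line at 0 h between 3.54 and 13.1 and wild type at 0 h between 31.2 and 40.4. Wild type at 12 h lay between -9.27 and 1.67 on it and the inducible line at 12 h between -43.4 and -35.0. The component thus parted the times as well as the lines. Wild-type replicates 1 and 2 at 0 h, from the same lane, differed by a chi-square of 41.8 per gene, against 10.8 to 23.8 in the other 7 same-lane pairs of replicates of a group. Without wild-type replicate 1 more genes were called, and that count is given below. The summed level of 7 green shoot markers was 183746 to 232884 normalized counts in the inducible line and 181698 to 333272 in wild type, and 1 of the 7 was called lower. The summed levels of markers for root hair cells, root endodermis, root, epidermis and guard cells overlapped between the lines and had no called member. Markers of guard cell precursors summed to 614 to 748 normalized counts against 483 to 609, with 1 of 5 called higher, SPCH itself. Markers of dry seed summed to 3.14 to 202 against 4.25 to 14.9, and no marker was at 0 in every library of a line. At least 1 inducible library thus stood far above all of wild type, and 1 of these 6 markers had enough counts to be tested. The 3 tested seed storage genes had a median log2 difference of 0.44 in lane 1 and 2.22 in lane 2. The part of tissue proportions in the differences was not tested, and in whole seedlings fewer cells of a type and less RNA per cell cannot be told apart.

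The lines differed widely before induction. Of 20756 genes tested, 2641 were called, which is 12.7%, with 1334 higher in the inducible line (6.43%) and 1307 lower (6.30%). A gene is called here when its Benjamini-Hochberg adjusted p is below 0.05 in limma on log2(normalized count + 1), with the lane term and all 16 libraries in 1 fit. The differences were mostly small: the median log2 difference was 0.58 among genes called higher and -0.50 among those called lower, against 0.00 over all genes tested. At least a doubling was estimated for 247 genes called higher, and at least a halving for 48 called lower. Over all tested genes, 1771 had no overlap between the 4 inducible and the 4 wild-type libraries, which is 8.53%.

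The count of called genes rests on the lane term and on how the spread is estimated. Without the lane term 414 genes were called, all among the 2641. With the 8 libraries at 0 h alone and the lane term the count was 1141, and with the replicate number as a block in those 8 it was 577. Each lane with its 2 libraries a group gave 1 call in lane 1, CYP82C2, and 1846 in lane 2. Of the genes called in lane 2, 89.5% had the same sign in the separate libraries of lane 1, against 65.5% of all genes tested. Their median log2 difference was 0.83 in lane 2 and 0.35 in lane 1 for those called higher, and -0.73 and -0.28 for those called lower. The genes were selected on lane 2, which itself favours larger differences there, so nothing is read from the gap between the lanes. A test of whether the line difference itself differed between the lanes was added after seeing the data. No gene was called in it by limma in the 8 libraries at 0 h, where 1270 had an unadjusted p below 0.05. With 2 libraries of a line per lane, the lack of calls does not show that the lanes were alike. Leaving out wild-type replicate 1 raised the count to 4242. Leaving out inducible replicate 1, 3 or 4 lowered it to 1689, 1557 or 976, and leaving out wild-type replicate 3 or 4 lowered it to 1637 or 1091.

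**Figure D1:**
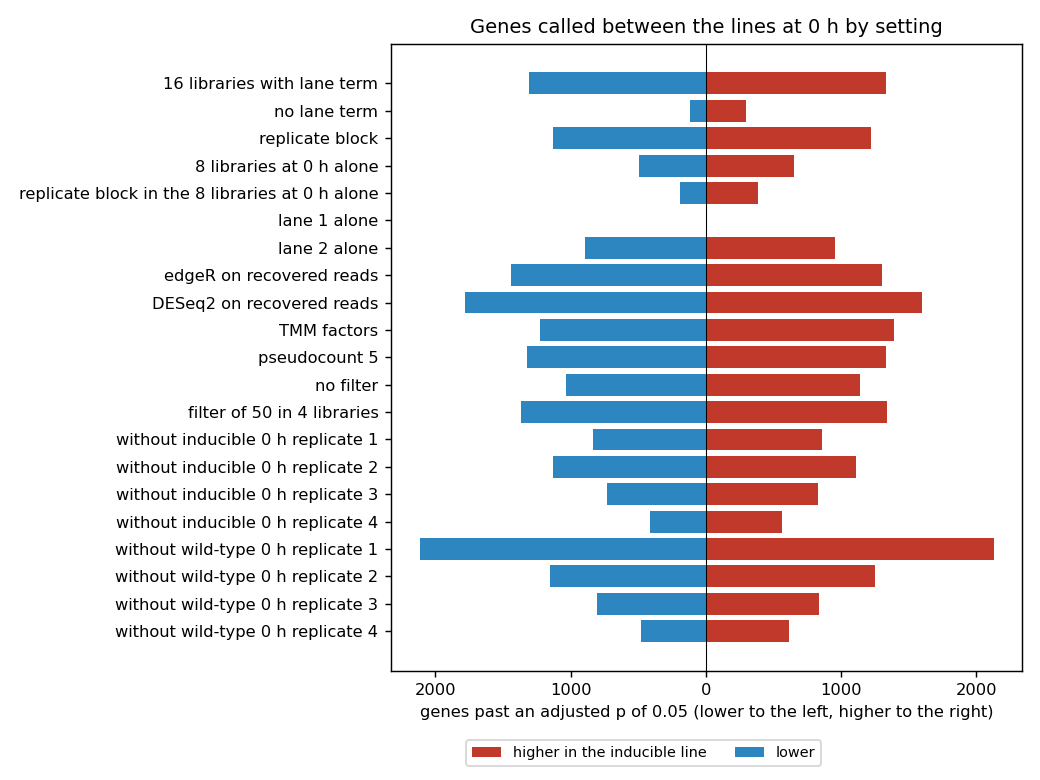
Number of genes past an adjusted p of 0.05 between the lines at 0 h, with genes lower in the inducible line to the left of 0 and genes higher to the right, for the fit reported and for other settings. The count falls from 2641 to 414 without the lane term and to 1 in lane 1 alone, and it is 4242 without wild-type replicate 1.

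In the fit reported, SPCH was the one stomatal lineage gene called at 0 h. That is 1 of 19 tested, or 5.26%, where 12.7% of all tested genes were called. With so few genes the share does not set the list apart from the rest. SPCH lies on chromosome 5 from 21586219 to 21589255 (AT5G53210, TAIR10.1). Its normalized counts in the inducible line were 116, 144, 154 and 145 in replicates 1 to 4, and in wild type 69.7, 56.1, 67.3 and 60.5. Every inducible library was above every wild-type library. The log2 difference was 1.12 ± 0.15 (SE; limma adjusted p = 0.0003), and an exact 2-sided permutation test over the 8 libraries gave p = 0.0286, the smallest that 4 against 4 allows. With libraries exchanged within their lane only, an alternative chosen after seeing the data, the exact permutation test has 36 arrangements and gave p = 0.0556, its smallest, so that it cannot pass 0.05. Reads from the transgene would also count for SPCH, since the table does not part them. In lane 1 alone the difference was 1.04 with a limma adjusted p of 0.263.

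The other 18 tested members of the stomatal lineage list did not pass the threshold in the fit reported. Without wild-type replicate 1, 2 of the examined genes not called at 0 h passed it. The examined genes not called all belong to this list or to the induction list described next. EPF2, the secreted peptide that limits entry into the lineage and a known target of SPCH, had 39.8, 43.8, 79.0 and 66.4 normalized counts in the inducible line and 42.3, 51.1, 93.0 and 78.6 in wild type. The receptor-like protein TMM had 265, 311, 297 and 271 against 228, 198, 309 and 288. The polarity gene BASL had 33.5, 39.1, 60.8 and 51.0 against 27.4, 50.2, 57.7 and 61.6. For each of these 3 genes the lines overlapped, and the log2 differences were -0.19 ± 0.19, 0.18 ± 0.12 and -0.07 ± 0.26 (SE). ICE1 and SCRM2, the partners with which SPCH binds DNA, differed by -0.07 ± 0.08 and -0.04 ± 0.11, and MUTE and FAMA, which act later in the lineage, by 0.31 ± 0.22 and -0.04 ± 0.13. The receptor kinase gene ERL1 came nearest to the threshold, at 0.43 ± 0.15 (limma adjusted p = 0.058), with overlapping groups. At 12 h after dexamethasone the line difference had become larger than at 0 h for EPF2 (2.92), TMM (2.50), BASL (2.35), POLAR (1.94), ICE1 (0.99) and SCRM2 (0.98), each with a called change of the difference. These 6 belong to the list, described next, that was chosen on these libraries for being raised after induction, so that the call of the change is no independent evidence. For SPCH it was 1.58 at 12 h, and the change from 0 h was not called (limma adjusted p = 0.24).

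**Figure D2:**
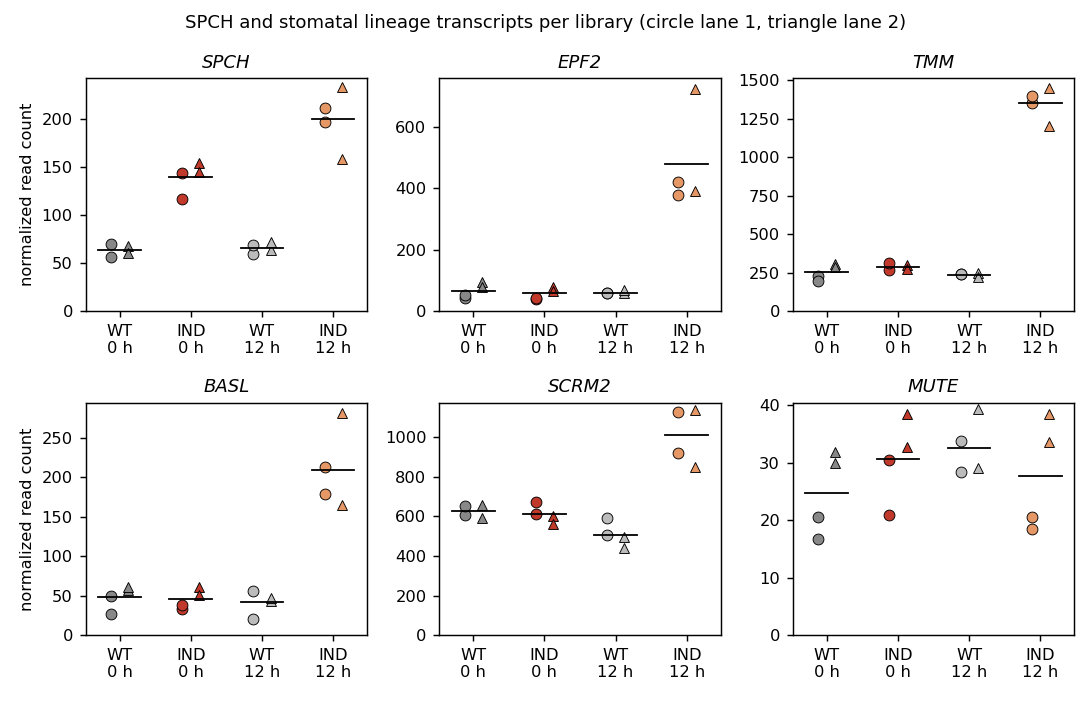
Normalized read counts of SPCH and of 5 other stomatal lineage genes in each of the 16 libraries, wild type (WT) and inducible line (IND) at 0 and 12 h, on axes from 0; circles are lane 1, triangles lane 2, and bars the means of 4 libraries. At 0 h the lines are apart for SPCH and overlap for EPF2, TMM, BASL, SCRM2 and MUTE.

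A list of 11 genes that were raised after induction, which was chosen on these same libraries, had no member called higher at 0 h and 2 of 11 called lower, where 6.43% and 6.30% of all tested genes were. So few genes do not set the list apart from the rest. AT5G11550 was lower, with 81.7, 75.3, 63.0 and 81.9 normalized counts against 88.0, 163, 174 and 175 in wild type. Wild-type replicate 1 was close to the inducible libraries and the other 3 were far above them. The log2 difference was -0.94 ± 0.18 (limma adjusted p = 0.0042). With the replicate block in the 8 libraries at 0 h, called the 8-library block below, the adjusted p was 0.055. AT3G14760 was also called lower (-0.50 ± 0.14, limma adjusted p = 0.024), a call that was lost without any 1 of 6 of the 8 libraries, the exceptions being replicate 1 of each line, and under the 8-library block (adjusted p = 0.12). The selection of these genes used the 0 h libraries, so these differences are not independent of it. Among 13 genes that act upstream of SPCH, 3 were called higher (23.1%, against 6.43% of all tested genes) and none lower, the MAP kinase kinases MKK9 and MKK7 and the MAP kinase MPK3, all 3 of which also take part in stress signalling. MKK9 had 3833, 3178, 3869 and 2364 normalized counts against 2385, 1600, 1161 and 1314. The groups just overlapped, and the log2 difference was 1.06 ± 0.17 (limma adjusted p = 0.0015). The call of MKK7 (1.04) was lost without inducible replicate 1 or 3 or wild-type replicate 4, and that of MPK3 (0.55) without replicate 3 or 4 of either line. Both were also lost under the 8-library block, with adjusted p of 0.073 and 0.076.

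Part of the genes of pathogen defence were called higher in the inducible line. In plants under attack, salicylate and jasmonate signalling switch on transcription factors of the WRKY family, which bind the W box, and enzymes that turn tryptophan into indolic defence compounds. Of 25 tested members of the salicylate and defence list, 12 were called higher and none lower, that is 48% higher against 6.43% of all tested genes, with a median log2 difference of 0.65. WRKY33, a regulator of these indolic compounds, had 2384, 2756, 2464 and 2312 normalized counts in the inducible line and 1225, 1307, 673 and 972 in wild type. Its lowest inducible library was above its highest wild-type library, and the log2 difference was 1.29 ± 0.14 (limma adjusted p = 6.8e-05). SARD1 (1.22) and WRKY70 (1.21), regulators of salicylate responses, and WRKY53 (1.19) were higher as well, and none of these 4 overlapped between the lines or lost its call without any 1 library at 0 h. At 12 h the median difference of the list was 0.15, and 4 of the 12 called members were called again with the same sign.

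CYP82C2, which hydroxylates an indolic cyanogenic defence compound, had the largest difference of the genes named by size. It had 567, 378, 199 and 192 normalized counts in the inducible line and 20.6, 10.9, 15.0 and 17.0 in wild type. Lane 1 held the higher inducible values, and every one of the 4 was far above wild type. The log2 difference was 4.196 ± 0.29 (limma adjusted p = 1e-06), about 18.3-fold on this scale. CYP71A12, an enzyme earlier in the same pathway, had 2318, 872, 842 and 1379 against 217, 261, 212 and 206. The lines were far apart, with a log2 difference of 2.47 ± 0.46 (limma adjusted p = 0.0075). AT1G26380, an oxidase of that pathway, differed by 1.57 ± 0.27, and MYB51, which drives indole glucosinolate genes, by 1.43 ± 0.16, both without overlap.

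The windows before these genes are shown because 2 of them belong to the enzymes just described and 2 to WRKY factors of the defence list, WRKY33 and WRKY40. WRKY40 had 347, 273, 571 and 384 normalized counts against 133, 124, 135 and 202, without overlap, a log2 difference of 1.38 ± 0.23 (limma adjusted p = 0.0016). Each runs from 250 bases before to 50 bases after the RefSeq gene start (TAIR10.1), 300 bases, 5′ to 3′ on the gene's strand, and capitals mark the W box, searched as TTGACC or TTGACT on both strands. CYP82C2 is chr4:15462100-15462399 (+), WRKY33 chr2:16107985-16108284 (+), CYP71A12 chr2:13101322-13101621 (-) and WRKY40 chr1:30383311-30383610 (+).
CYP82C2: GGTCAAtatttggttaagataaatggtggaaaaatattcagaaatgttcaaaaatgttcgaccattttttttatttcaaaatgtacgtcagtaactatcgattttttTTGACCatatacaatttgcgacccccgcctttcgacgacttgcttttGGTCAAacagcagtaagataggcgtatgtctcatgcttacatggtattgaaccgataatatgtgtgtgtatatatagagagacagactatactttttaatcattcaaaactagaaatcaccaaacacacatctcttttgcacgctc
WRKY33: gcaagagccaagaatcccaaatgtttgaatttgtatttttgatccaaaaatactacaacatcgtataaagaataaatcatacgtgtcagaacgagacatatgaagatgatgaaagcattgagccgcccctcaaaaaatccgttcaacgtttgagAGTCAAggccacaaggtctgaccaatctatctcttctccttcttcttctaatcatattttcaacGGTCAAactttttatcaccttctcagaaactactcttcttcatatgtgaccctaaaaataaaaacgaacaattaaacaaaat
CYP71A12: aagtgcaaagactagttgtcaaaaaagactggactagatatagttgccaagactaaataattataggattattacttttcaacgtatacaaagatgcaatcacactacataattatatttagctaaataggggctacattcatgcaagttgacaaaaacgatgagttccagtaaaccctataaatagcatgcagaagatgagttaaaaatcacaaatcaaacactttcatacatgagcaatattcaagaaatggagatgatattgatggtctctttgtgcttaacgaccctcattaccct
WRKY40: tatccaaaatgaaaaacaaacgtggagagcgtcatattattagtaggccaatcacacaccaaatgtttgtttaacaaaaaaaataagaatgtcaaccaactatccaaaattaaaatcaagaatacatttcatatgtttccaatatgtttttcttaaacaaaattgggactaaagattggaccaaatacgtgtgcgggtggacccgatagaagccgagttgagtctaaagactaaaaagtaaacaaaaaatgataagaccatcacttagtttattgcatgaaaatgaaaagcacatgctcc

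The CYP82C2 window held 3 W boxes and that of WRKY33 held 2, while those of CYP71A12 and WRKY40 held 0. JAZ8 and PDC1, whose windows were also counted, had 1 and 2. Over the genes with a window, at least 1 W box lay in 43.4% of 1331 called higher and in 28.2% of 1303 called lower, against 32.8% of all 20628 tested and 31.4% of all 37885 windows. For the G box, CACGTG, a motif of other factors, the shares were 8.64% and 9.13% against 8.52% of those tested. These 2 motifs were the ones searched, chosen after the expression values were known, and the shares are a description with no test.

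The jasmonate list had called members in 1 direction. Jasmonate acts through JAZ proteins, repressors whose own genes it switches on. Of 28 tested list members, 11 were called higher (39.3%, against 6.43% of all tested genes) and none lower, and the estimate was above 0 for all 28, with a median log2 difference of 0.75. JAZ8 had 78.6, 33.3, 169 and 57.3 normalized counts in the inducible line and 18.3, 10.04, 17.1 and 6.37 in wild type. Replicate 3 was the highest of the inducible libraries, and the groups did not overlap. Its log2 difference was 2.47 ± 0.56 (limma adjusted p = 0.011). JAZ7 (1.59), JAZ3 (0.98) and JAZ2 (0.76) were higher without overlap too. Inducible replicate 3 stood above the other 3 for JAZ2 and JAZ7, and without it 5 members of the list were called. The count was 6 without inducible replicate 1, and 5 and 7 without wild-type replicates 3 and 4. At 12 h the list's median difference was 0.11, and 1 of the 11 called members was called again with the same sign. For JAZ3 (-0.01) and JAZ2 (0.13) the change from 0 h was called, with limma adjusted p of 0.011 and 0.041.

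Genes that plants switch on when oxygen is short were a further list with called members. Pyruvate decarboxylase feeds fermentation, and plant cysteine oxidases (PCO) mark the regulators of these genes for breakdown while oxygen lasts. Of 17 tested members, 7 were called higher (41.2%, against 6.43% of all tested genes) and none lower, with a median log2 difference of 1.03. PDC1 (AT4G33070), a pyruvate decarboxylase, had 1254, 1978, 1852 and 1482 normalized counts in the inducible line and 270, 537, 152 and 368 in wild type. The lowest inducible library was more than double the highest of wild type, and the log2 difference was 2.42 ± 0.47 (limma adjusted p = 0.0091). PCO2 had 925, 1136, 1001.1 and 825 against 302, 398, 230 and 353, a log2 difference of 1.62 ± 0.32 (limma adjusted p = 0.007). HRA1, a factor that tempers the response, differed by 1.05 ± 0.23, and AT4G10265, annotated as a wound-responsive gene and on the list, by 1.70 ± 0.40. NIP2;1, a channel of the aquaporin family known to be raised by low oxygen, was outside the list and was among the largest differences. It had 103, 191, 170 and 132 against 40.0, 15.1, 10.7 and 18.0, a log2 difference of 2.90 ± 0.50 (limma adjusted p = 0.0033). At 12 h the list's median difference was 1.23, and 6 of the 7 called members were called again with the same sign. Without replicate 3 of either line, 4 members were called at 0 h.

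**Figure D3:**
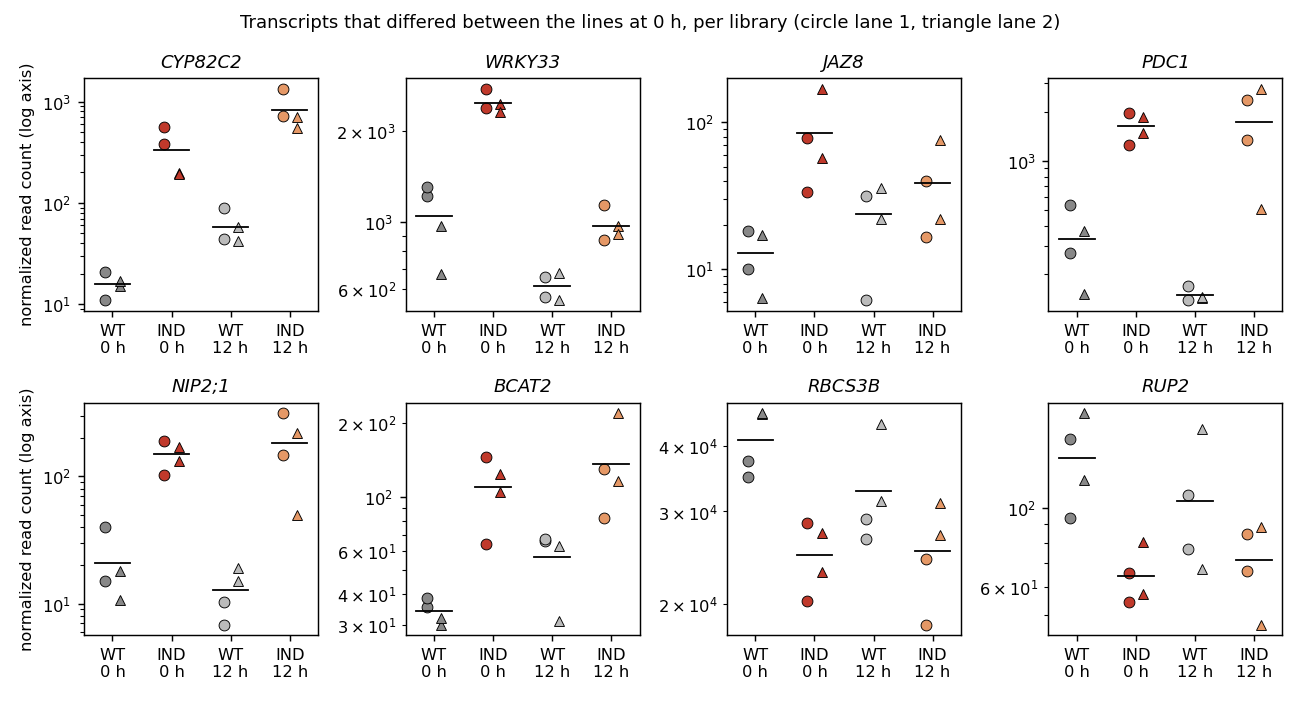
Normalized read counts, on log axes, of 8 genes in each of the 16 libraries, wild type (WT) and inducible line (IND) at 0 and 12 h; circles are lane 1, triangles lane 2, and bars the means of 4 libraries. At 0 h the 2 lines do not overlap for any of the 8; CYP82C2, PDC1 and NIP2;1 are also apart at 12 h, while JAZ8 overlaps there.

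Ethylene is made from a precursor supplied by ACS enzymes and is sensed by receptors such as ETR2. Of 20 tested members of its list, 7 were called higher (35%, against 6.43% of all tested genes) and none lower, with a median log2 difference of 0.24. At 12 h the median was 0.54, and 4 of the 7 were called again with the same sign. The list shares ERF1 with the jasmonate list, and ETR2 and ACO1 with the low oxygen list. ERF1 and ETR2 were called, so that each counts in both of its lists. The call of ETR2 was lost without inducible replicate 1, 3 or 4 or wild-type replicate 3 or 4. It was also lost without the lane term and under the 8-library block. ACS6 had 1445, 939, 1431 and 1176 normalized counts against 704, 676, 504 and 559, with no overlap and a log2 difference of 1.02 ± 0.17 (limma adjusted p = 0.0015). The response factors ERF1 (1.28) and ERF6 (0.80) were higher, and both lost the call without inducible replicate 1 or 3 or wild-type replicate 3, and under the 8-library block (adjusted p = 0.08 and 0.096). When any 1 of those 3 libraries was left out, 1 member of the list was called, 3 were called without inducible replicate 4 and 4 without wild-type replicate 4. Genes that respond to darkness and sugar starvation had 6 of 16 called higher (37.5%, against 6.43% of all tested genes) and none lower, with a median of 0.50. At 12 h the median was -0.19, and 2 of the 6 were called again with the same sign. BCAT2, which breaks down branched-chain amino acids, had 146, 63.8, 124 and 105 against 35.4, 38.5, 29.9 and 31.8, a log2 difference of 1.61 ± 0.30 (limma adjusted p = 0.0037), and the lines did not overlap. DIN2, a beta-glucosidase gene raised in the dark, differed by 1.59 ± 0.32, with an adjusted p of 0.0057 that was 0.057 under the 8-library block. TPS11 (0.79) and TPS8 (0.65), class II trehalose-phosphate synthases, were higher at 0 h and stood at -0.18 and -0.13 at 12 h, each with a called change. In the list for RNA silencing 2 of 17 were called, 11.8% where 12.7% of all tested genes were. They were DCL4 (0.52) and DCL2 (0.49), and both lost the call without the lane term and under the 8-library block (adjusted p = 0.063 and 0.083), and DCL2 also without inducible replicate 4.

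Photosynthesis genes were the list with most members called lower, 6 of 26 (23.1%, against 6.30% of all tested genes) with none higher and a median log2 difference of -0.30. RBCS3B, a small subunit of Rubisco, had 20225, 28522, 27327 and 23002 normalized counts in the inducible line and 37427, 34872, 45894 and 46108 in wild type. All 4 inducible libraries were below all 4 of wild type, with a log2 difference of -0.73 ± 0.14 (limma adjusted p = 0.0038). RBCS2B, a close neighbour and near copy whose reads could be shared with it, had -0.74 ± 0.16 with overlapping groups, and an adjusted p of 0.069 under the 8-library block. The median of the list was -0.04 in lane 1 and -0.57 in lane 2. At 12 h it was -0.40, and 1 of the 6 called members was called again with the same sign. Without inducible replicate 4 the count of lower members was 2, and without wild-type replicate 3 or 4 it was 3. PSBO2 (-0.75), a subunit of the oxygen-evolving complex, lost its call without replicate 4 of either line, and PSAD-1 (-0.55), of photosystem I, without inducible replicate 4 or wild-type replicate 3 and under the 8-library block (adjusted p = 0.079).

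Among the remaining lists the counts were small, and a share of called members near the 12.7% called over all tested genes is no result about a list. The cuticle list had 4 lower and 1 higher of 20, led by KCS1, which elongates wax precursors, at -0.47 ± 0.10 (limma adjusted p = 0.0085, or 0.058 under the 8-library block) and without overlap. At 12 h KCS1 was again lower (-0.76). The clock list had 3 lower of 23, or 13%, the evening genes ELF4 (-0.66) and LUX (-0.75) and the related BOA (-0.65), the last of which lost its call without inducible replicate 3 or 4 or wild-type replicate 2 or 3 and under the 8-library block (adjusted p = 0.06). The auxin list had 3 lower of 26, or 11.5%, which were Aux/IAA repressor genes. Of these IAA5 (-1.41) lost its call without wild-type replicate 4, IAA19 (-0.95) without inducible replicate 3 or wild-type replicate 4, and IAA7 (-0.52) without any 1 library but wild-type replicate 2 and under the 8-library block (adjusted p = 0.084). Cytokinin had 3 lower of 19, and abscisic acid and dehydration 3 lower of 17. In the cold regulon 2 were higher and 1 lower of 11, the lower one being COR47, a dehydrin, with 2960, 3259, 2825 and 3335 normalized counts against 4479, 4643, 4914 and 5538. The lines did not overlap, and the log2 difference was -0.66 ± 0.10 (limma adjusted p = 0.0011). The list of chaperones, which include those that hold steroid receptors, had 1 higher and 1 lower of 17 and a median of -0.33.

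Called members were 1 higher and 3 lower of 20 in flavonoids and anthocyanins, 2 higher and 1 lower of 27 in glucosinolates and nitriles, and 3 higher and 1 lower of 29 in cell wall loosening. They were 2 higher of 18 in sulfur, 2 lower of 18 in nitrate, 1 lower of 23 in iron and 2 higher and 1 lower of 16 in phosphate starvation. Brassinosteroid had 2 higher and 1 lower of 19, the list of PIF and warm temperature genes 1 higher and 1 lower of 21, and endodermis and suberin 2 higher of 22. Mitosis had 2 higher of 27 and DNA replication 1 higher and 2 lower of 27. No member was called by limma among 22 root hair, 18 trichome, 15 epidermis and HD-ZIP IV, 22 flowering, 19 gibberellin, 15 triterpene and 3 tested seed storage genes. Of these 114 genes, 14 had an unadjusted p below 0.05, which is 12.3%, against 29.1% of all tested genes.

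**Figure D4:**
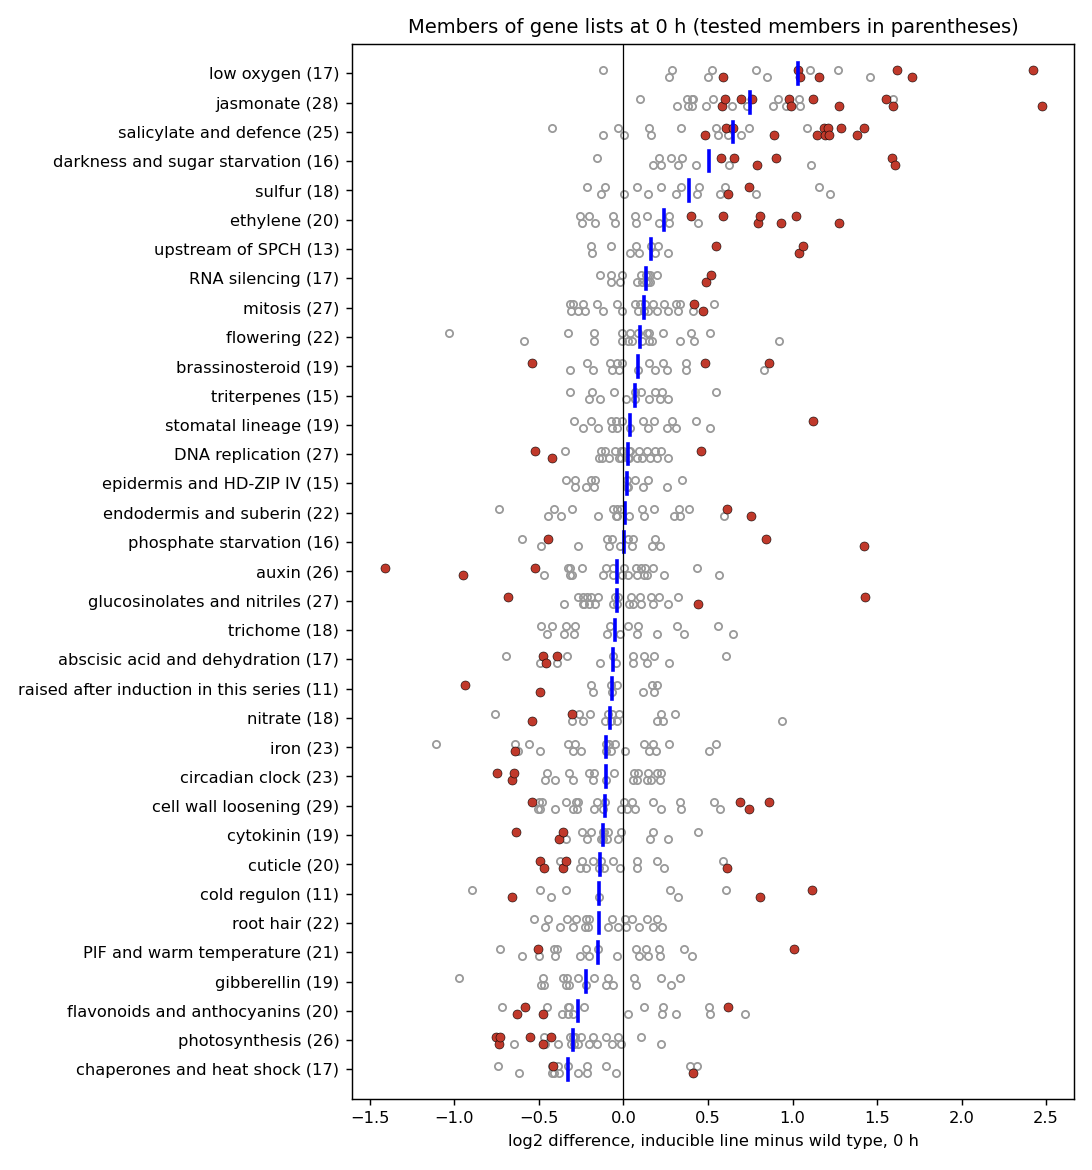
Log2 difference between the inducible line and wild type at 0 h for each tested member of the lists with at least 5 tested members, ordered by the median (blue bar); filled red points are genes past an adjusted p of 0.05, open points are not. The medians run from 1.03 for low oxygen to -0.33 for chaperones and heat shock, and the stomatal lineage list has SPCH as its only filled point.

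Some genes were named for the size of their difference among called genes without overlap and with a mean of at least 20, whether or not a list held them. The 14 largest positive differences by the naming rule ran from 2.14 to 4.196 on the log2 scale, and 13 of them kept the call without any 1 of the libraries at 0 h. Beyond those already given they included GLIP1, a secreted lipase of defence (2.87), AOX1D, an alternative oxidase of mitochondria (2.31), and QQS, an orphan gene that affects starch content (2.21). AT2G17850, of the rhodanese family (2.98), was the one that lost its call, without replicate 4 of either line. AT5G39110 (2.28) and AT5G39120 (2.42), germin-like genes, lie side by side and are near copies, so that their counts are uncertain. The 14 largest negative differences ran from -1.83 to -1.03, and 5 of them kept the call without any 1 library. AT2G27420, a cysteine proteinase gene, had 13.6, 53.3, 28.8 and 30.9 normalized counts against 126, 87.0, 107 and 89.2 and kept the call, with no overlap and a log2 difference of -1.79 ± 0.37 (limma adjusted p = 0.0062). AT1G11700, a gene of the DUF584 family, had 90.13, 109, 97.1 and 90.09 against 153, 203, 251 and 335 (-1.22 ± 0.18, limma adjusted p = 0.00059), also without overlap. RUP2, a repressor of the UV-B response, differed by -1.06 ± 0.27, and its call was lost without replicate 4 of either line.

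A single gene was silent in 1 line. AT2G15420, annotated as a myosin heavy chain-like gene on chromosome 2 from 6723948 to 6728183, had 0 reads in all 4 inducible libraries at 0 h and between 12 and 21 in each wild-type library. With 3 reads over the group as the limit that a count of 0 allows, its level was at least 24.1-fold lower. It also had 0 reads in the 4 inducible libraries at 12 h, against 3 to 20 in wild type, at least 13.5-fold lower. No gene was at or near 0 in wild type alone by the limit of 3 reads.

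On the nuclear chromosomes called genes ranged from 12.2% of the tested genes on chromosome 5 to 13% on chromosomes 1 and 4. Of the chloroplast genome 1 of 78 tested genes was called and of the mitochondrial genome 1 of 16. A tested neighbour called in the same direction was present for 17.7% of genes called higher, against 12.0% of the other tested genes, and for 14.3% of those called lower, against 12.1%. There were 21 runs of at least 3 neighbouring called genes, several of them families in tandem. On chromosome 1 the glutathione transferases GSTF7 (1.28), GSTF6 (1.17) and GSTF5 (1.02) lay between 658578 and 664290. The indole glucosinolate methyltransferases IGMT1 to IGMT4, between 7386762 and 7400736, ran from 0.61 to 1.61. On chromosome 4 the receptor-like kinases CRK10 to CRK13, between 12137995 and 12151638, ran from 0.64 to 0.92. On chromosome 3 the cytochrome P450 genes CYP71B22, CYP71B23, CYP71B3 and CYP71B24, between 9589249 and 9599988, ran from 0.50 to 0.92. Members of such families are alike in sequence and reads may have been split among them, so their single values are uncertain. Of these members, GSTF5, IGMT1, IGMT3, CRK13 and CYP71B23 lost the call without at least 1 library at 0 h: IGMT1 without inducible replicate 4, IGMT3 without replicate 4 of either line, and the other 3 without any 1 of 5 to 7 of the 8. Under the 8-library block the adjusted p was 0.098 for GSTF5, 0.071 for CRK10, 0.057 for CRK12, 0.15 for CRK13 and 0.12 for CYP71B23.

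The libraries at 12 h are separate ones, from seedlings of the same lines after dexamethasone. Of the 2641 genes called at 0 h, 72.8% had the same sign at 12 h, against 58.7% of all genes tested. There 261 of them, or 9.88%, were called with the same sign, against 4.69% of all genes, and 20 were called with the opposite sign. At 12 h, 6.81% of all tested genes were called between the lines, 2.63% higher and 4.19% lower in the inducible line. By direction, 161 of the 1334 higher genes were called again and 100 of the 1307 lower ones. Among the genes named for size, 10 of the 14 largest positive differences were called at 12 h with the same sign and 1 of the 14 largest negative ones. CYP82C2 differed by 3.78 at 12 h, NIP2;1 by 3.54, PDC1 by 3.28 and GLIP1 by 2.97. A change of the line difference between the times was called for 230 of the 2641, where 2.82% of all tested genes had one. The 2641 were selected on the 0 h difference, which enters the change, so the selection itself favours such calls and nothing is read from the share. When the times were fitted apart, 1141 genes were called at 0 h. Of those, 78.5% had the same sign at 12 h, and 180 were called at both times with the same sign. Without inducible replicate 1, 3 or 4 the number called at both times was 170, 170 or 153, and without wild-type replicate 4 it was 167.

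**Figure D5:**
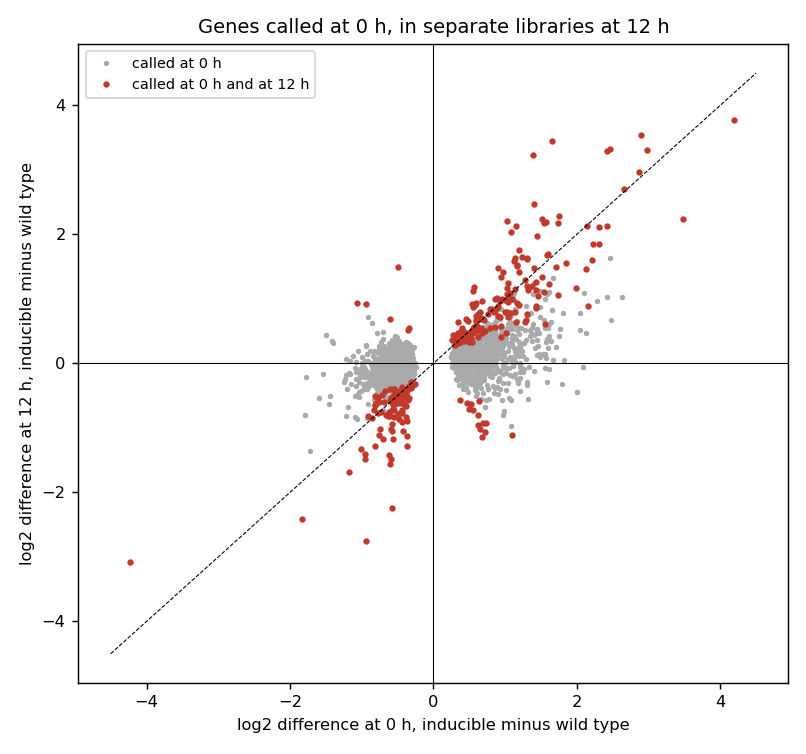
Log2 difference between the inducible line and wild type at 12 h against that at 0 h, 1 point for each of the 2641 genes called at 0 h; red points were also called at 12 h, and the dashed line marks equal differences. The gap around 0 on the horizontal axis comes from the threshold; 261 red points lie in the quadrants of equal sign and 20 in the others.

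The genes called higher had a median length of 2596 bases and those called lower of 2019, against 2382 over all tested genes with a length. Their median levels at 0 h were 444 and 632 normalized counts, against 299 over all tested. Levels here are not scaled to length, so that these medians of levels describe how deeply the sets were counted and not relative abundance.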

How the data were processed

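Polyadenylated RNA of whole seedlings was measured in 16 libraries. The authors deposited 1 table of 33602 genes, a signal in which reads per gene had been divided by 1 size factor per library: in each column 100% of values lay within 0.001 of a whole multiple of 1 step, from which whole reads were recovered. TAIR10 as the build and TopHat, HTSeq, SAMtools and DESeq2 as tools are listed in the submitters' processing notes, which give no versions or strand setting. The matching to RefSeq (TAIR10.1) covered 32835 genes.

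A gene was tested when 4 or more libraries reached 10 normalized counts, with limma 3.58.1 (R 4.3.3; trend and robust moderation) on log2(normalized count + 1), as 4 group means and a lane term, with Benjamini-Hochberg adjustment. The pseudocount of 1 understates the change of low genes. Library totals of 16251477 to 22944391 reads set the precision, and limits from counts of 0 cover counting error only. edgeR 4.0.16 and DESeq2 1.42.0 were run on the recovered reads as alternatives, calling 2743 and 3382 genes. The limma fit with the lane term was run on 1 simulated data set with the same dispersion for all genes. The other steps were not tested in that way.

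The labels tie replicate numbers to lanes, and deviations of same-numbered libraries of the lines at 0 h correlated at 0.521 to 0.714 over genes, or -0.105 to 0.012 once the lane mean was removed. With 2 libraries of a line per lane, deviations from the lane mean mirror each other, so that each lane gives 1 value. These values cannot show whether a pairing beyond the lane remained. The reported fit has the lane term alone, and the counts under a replicate block are given beside it. The comparison, the 36 gene lists and the naming rule were chosen with earlier results of these data known, and no list was tested as a set. Some list entries were corrected or dropped where a symbol had matched a wrong locus, for FDH, ACR4, WIP4 and SCL28 after values of the lists had been seen, and GPX1 was then dropped from the phosphate list. The rule took SPCH, the 14 largest positive and 14 largest negative differences among called genes with a mean of at least 20 and no overlap, up to 4 called members per list, all stomatal and induction-list members, genes at or near 0 in 1 line, and runs of at least 3 called neighbours. It took 194 genes. Of these, 121 were picked for closer description after their values were seen, and the text names part of those. The 4 windows shown were picked for their genes; 2 of them were exchanged for JAZ8 and PDC1 when the motif counts were seen and then put back.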

Additional observations from a re-analysis of the deposited data

Results flagged for a closer look

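The 121 genes examined were each looked at in 2 groups of 4 libraries at 0 h. In 12 of 242 gene and group combinations 1 library was far from the other 3 by Dixon's criterion. Chance would give about 12.1 if the 4 libraries of a group were alike and normally spread. Each group held libraries of both lanes and the genes were picked, so the likeness of these counts does not show that chance made them. Of the 12 combinations, 5 fell on inducible replicate 3. The values are normalized counts. In wild-type replicate 1 AT5G11550 had 88.0 (others 163 to 175). In inducible replicate 2 AT3G19615 had 23.8 (others 64.6 to 71.5), and CRK10 had 1239 (others 816 to 847). In inducible replicate 3 AT5G44440 had 18.1 (others 38.8 to 42.9), AT4G10265 had 1114 (others 510.4 to 612), JAZ2 had 878 (others 698 to 716), JAZ7 had 100.3 (others 27.6 to 38.2), and PSAD-1 had 5843 (others 3879 to 4006). In wild-type replicate 2 AT5G37550 had 73.7 (others 55.6 to 57.3). In wild-type replicate 3 AT1G72910 had 245 (others 329.8 to 345). In inducible replicate 1 CYP71B3 had 666 (others 571 to 578). In wild-type replicate 4 WRKY40 had 202 (others 124 to 135).

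For 24 of the 121 genes the difference between the lines changed from 0 h to 12 h by the test of the change itself (limma, adjusted p below 0.05), where 2.82% of all tested genes had such a change. The 121 were picked with their values known, and 11 of the 24 belong to the list chosen for being raised after induction, so that the 24 are no independent evidence of a change. The changes, as the log2 line difference at 12 h minus that at 0 h, were above 0 for ICE1 (1.07), SCRM2 (1.02), EPF2 (3.11), TMM (2.32), ERL1 (0.77), BASL (2.42), POLAR (1.82), CPL3 (2.87), AT3G14760 (1.99), AT1G12845 (1.58), AT5G11550 (1.85), AT5G10890 (2.13), AT3G09162 (0.99), and AT1G11700 (1.28). They were below 0 for AT3G23170 (-1.28), WRKY70 (-0.97), WRKY53 (-0.93), JAZ3 (-0.99), JAZ2 (-0.63), TPS11 (-0.97), TPS8 (-0.79), SULTR1;2 (-1.42), IGMT3 (-1.25), and CYP71B22 (-1.15). Dexamethasone and elapsed time changed together in both lines and cannot be told apart here.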

How the results depend on the processing

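The count of 2641 genes (1334 higher, 1307 lower) was 414 (295 and 119) without the lane term, 1141 (650 and 491) in the 8 libraries at 0 h alone, 577 (384 and 193) with a replicate block in those 8, and 1 (1 and 0) in lane 1 alone. It stayed within 1.5 times under a replicate block in all 16 (2351), lane 2 alone (1846), edgeR (2743), DESeq2 (3382), TMM factors (2613, with all genes shifted by 0.009 in the median), a pseudocount of 5 (2654), no filter (2170) and a filter of 50 (2710). Leaving out 1 library gave 976 to 4242 calls, 564 to 2128 higher and 412 to 2114 lower; the 8 libraries at 12 h, left out as an alternative chosen after seeing the data, moved none of these 3 counts by over 1.5 times. The share with the same sign at 12 h was taken among the genes called at 0 h in each setting, so that its base changes. It was 84.3% of 414 without the lane term, 78.5% of 1141 with the times fitted apart and 66.1 to 79.1% with 1 library left out. The number called at both times was 68 without the lane term, 180 with the times fitted apart, 393 by DESeq2 and 153 to 330 with 1 library left out. SPCH kept its call but in lane 1 alone (1.04), and ran from 1.07 to 1.21 with 1 library left out. Without the lane term the lists gave 4 low oxygen, 4 jasmonate, 1 ethylene and 3 starvation genes higher and 1 photosynthesis gene lower; the 8 libraries alone gave 11 low oxygen, 4 ethylene and 3 photosynthesis genes. With 1 library left out they gave 4 to 7 low oxygen, 10 to 14 defence, 5 to 11 jasmonate, 1 to 6 ethylene, 4 to 6 starvation and 2 to 8 photosynthesis genes. With a limit of 5 reads, 2 genes were near 0 in 1 line. Signs reversed in 17 cases, all of 10 stomatal genes called in neither fit: in lane 1 alone SCRM2 (0.032), EPFL9 (-0.14), ERL2 (-0.065), FLP (-0.027) and CPL3 (-0.13), in lane 2 alone FAMA (0.026), TMM (-0.071), MYB88 (-0.13) and HDG2 (0.19), and with TMM factors HDG2 (0.0027). With 1 library left out the ranges that crossed 0 were FAMA -0.094 to 0.017, SCRM2 -0.074 to 0.0070, BASL -0.26 to 0.049, MYB88 -0.064 to 0.084 and HDG2 -0.077 to 0.092. Of 99 called genes examined apart from SPCH, 32 lost their call with the replicate block in the 8 libraries, 3 with it in all 16, 41 without the lane term and 9 in the 8 libraries alone. Among the examined genes not called, 2 gained a call without wild-type replicate 1. With 2 libraries a group, each lane alone has few degrees of freedom, lane 2 with 1846 calls as well as lane 1 with 1. The cause of the changes between settings was not tested.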
